A study of Mus musculus with 39 samples.

Results

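Vascular signals were followed in mice kept under reduced oxygen for 2 hours, through 10 genes chosen by name: the ligands Vegfa, Vegfb, Vegfc and Pgf, the receptors Flt1 and Kdr, the angiopoietin Angpt2, the peptides Adm and Edn1, and the endothelin receptor Ednrb. They are 10 of the 18193 genes that the array annotation names alone on at least 1 probe set, a set of short probes read as 1 value. Every probe set named by exactly 1 of the 10 symbols was taken, which gave 20: 4 for Flt1, 3 each for Vegfc and Ednrb, 2 each for Vegfa, Adm and Angpt2, and 1 each for Vegfb, Pgf, Kdr and Edn1. All 20 were kept in every tissue, with no filter on low values.

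RNA of liver, bone marrow and spleen from B6C3F1 mice, the first-generation cross of C57BL/6 and C3H strains, was measured on 39 Affymetrix arrays. Liver had 8 hypoxia and 8 vehicle samples, spleen 8 hypoxia and 8 vehicle samples, and bone marrow 4 hypoxia and 3 vehicle samples. The titles name the arms hypoxia and vehicle and the treatment field calls them reduced oxygen and control. All mice were killed under ketamine and acepromazine anesthesia, and marrow of the humerus, part of a liver lobe and part of the spleen were taken. Marrow RNA was isolated with another kit than liver and spleen RNA, so kit and tissue cannot be told apart in comparisons with bone marrow. No vehicle substance, oxygen level, age or sex is stated in the labels, and nothing says whether samples of a group came from separate mice. The p-values therefore weigh each change against the spread between these samples, which may be technical.

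Cells short of oxygen stabilise the alpha subunits of the hypoxia-inducible factors, HIFs, which bind the DNA core ACGTG or GCGTG near their target genes. Vegfa is a textbook HIF target: the protein it encodes binds the receptors Kdr and Flt1 on endothelial cells and drives vessel growth and permeability. Adrenomedullin, the peptide made from Adm, is another HIF target that widens vessels and tightens the endothelial barrier, whereas endothelin-1, made from Edn1, narrows vessels through its receptor on smooth muscle and is cleared in part by Ednrb on endothelium.

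The promoter windows of the genes whose RNA moved are shown first, with every ACGTG or GCGTG of either strand in capitals, so that CACGT and CACGC are the same cores read from the opposite strand and a CACGTG would count once on each strand. They come from RefSeq (GRCm38.p6) and run from 250 bases before an annotated start to 50 after it, 5′ to 3′ on the strand of the gene. Adm lies at chr7:110627407-110627706 on the plus strand, and Vegfa has an upstream start at chr17:46032328-46032627 and an internal start at chr17:46025114-46025413, both on the minus strand. The Flt1 window is chr5:147725962-147726261 on the minus strand and the Vegfc window chr8:54077282-54077581 on the plus strand.
Adm: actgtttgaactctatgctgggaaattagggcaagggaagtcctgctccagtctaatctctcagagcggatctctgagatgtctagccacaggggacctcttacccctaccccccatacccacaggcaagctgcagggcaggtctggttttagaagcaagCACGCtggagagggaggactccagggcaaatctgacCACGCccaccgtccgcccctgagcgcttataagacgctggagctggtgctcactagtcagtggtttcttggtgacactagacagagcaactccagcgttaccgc
Vegfa upstream start: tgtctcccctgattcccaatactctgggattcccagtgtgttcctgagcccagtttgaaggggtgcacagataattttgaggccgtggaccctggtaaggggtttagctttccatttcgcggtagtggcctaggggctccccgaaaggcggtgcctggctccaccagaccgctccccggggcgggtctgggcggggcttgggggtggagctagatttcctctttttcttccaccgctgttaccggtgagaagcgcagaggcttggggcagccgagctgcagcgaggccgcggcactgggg
Vegfa internal start: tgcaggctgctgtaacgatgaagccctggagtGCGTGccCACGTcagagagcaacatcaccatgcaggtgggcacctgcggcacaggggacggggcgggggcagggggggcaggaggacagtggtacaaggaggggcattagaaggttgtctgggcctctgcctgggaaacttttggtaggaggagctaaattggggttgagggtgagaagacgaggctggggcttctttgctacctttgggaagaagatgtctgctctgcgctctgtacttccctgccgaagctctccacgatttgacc
Flt1: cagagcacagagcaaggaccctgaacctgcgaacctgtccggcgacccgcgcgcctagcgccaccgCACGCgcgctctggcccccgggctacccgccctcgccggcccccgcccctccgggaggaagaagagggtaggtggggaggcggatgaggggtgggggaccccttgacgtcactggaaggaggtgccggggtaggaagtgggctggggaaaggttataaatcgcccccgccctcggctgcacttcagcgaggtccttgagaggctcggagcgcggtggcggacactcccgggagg
Vegfc: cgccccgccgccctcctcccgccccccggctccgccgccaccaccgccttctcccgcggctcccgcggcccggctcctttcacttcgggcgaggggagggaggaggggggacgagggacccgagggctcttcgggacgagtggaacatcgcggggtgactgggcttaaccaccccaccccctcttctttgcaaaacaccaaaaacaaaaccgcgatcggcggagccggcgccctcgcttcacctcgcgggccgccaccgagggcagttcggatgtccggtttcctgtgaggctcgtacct

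The Adm window held 2 matches, beginning 90 and 54 bases before the start, and both were GCGTG on the opposite strand. At the upstream start of Vegfa there were 0 matches, whereas the internal start had 2, of which the first began 218 and the next 211 bases before it. Flt1 had 1 match, 184 bases before the start, and Vegfc had 0 in a window with a GC content of 70.3%. Of the 11 windows annotated for 9 of the genes, 8 (72.7%) held a match, against 43.8% of all 32851 promoter windows of that length, and 5 (45.5%) held at least 2, against 20.6% of all windows. Angpt2 is named only. These counts describe letters in a short window and not binding.

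Values below are log2 intensities, on which 1 unit is a doubling, and a change is hypoxia minus vehicle in 1 tissue, with its standard error. A probe set was called where limma's adjusted p, taken over all 45037 non-control probe sets, was under 0.05. In liver 6 of the 20 probe sets were called higher and 0 lower, against 3.06% of all probe sets called higher and 4.03% called lower. In bone marrow 2 were called higher and 2 lower, where 1.64% and 1.71% of all probe sets were called, and in spleen 4 were called higher and 0 lower, where 5.89% and 8.8% were. Across the 20, liver had a median change of 0.04, bone marrow of 0.06 and spleen of 0.07, beside -0.01, 0.00 and -0.00 for all probe sets. An unadjusted p under 0.05 was reached by 9 of the 20 in liver, where 18.5% of all probe sets reached it, by 7 in bone marrow (17%) and by 6 in spleen (25.8%). The called genes were Adm in all 3 tissues, Vegfa and Flt1 in liver and spleen, and Vegfc in bone marrow.

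**Figure D1:**
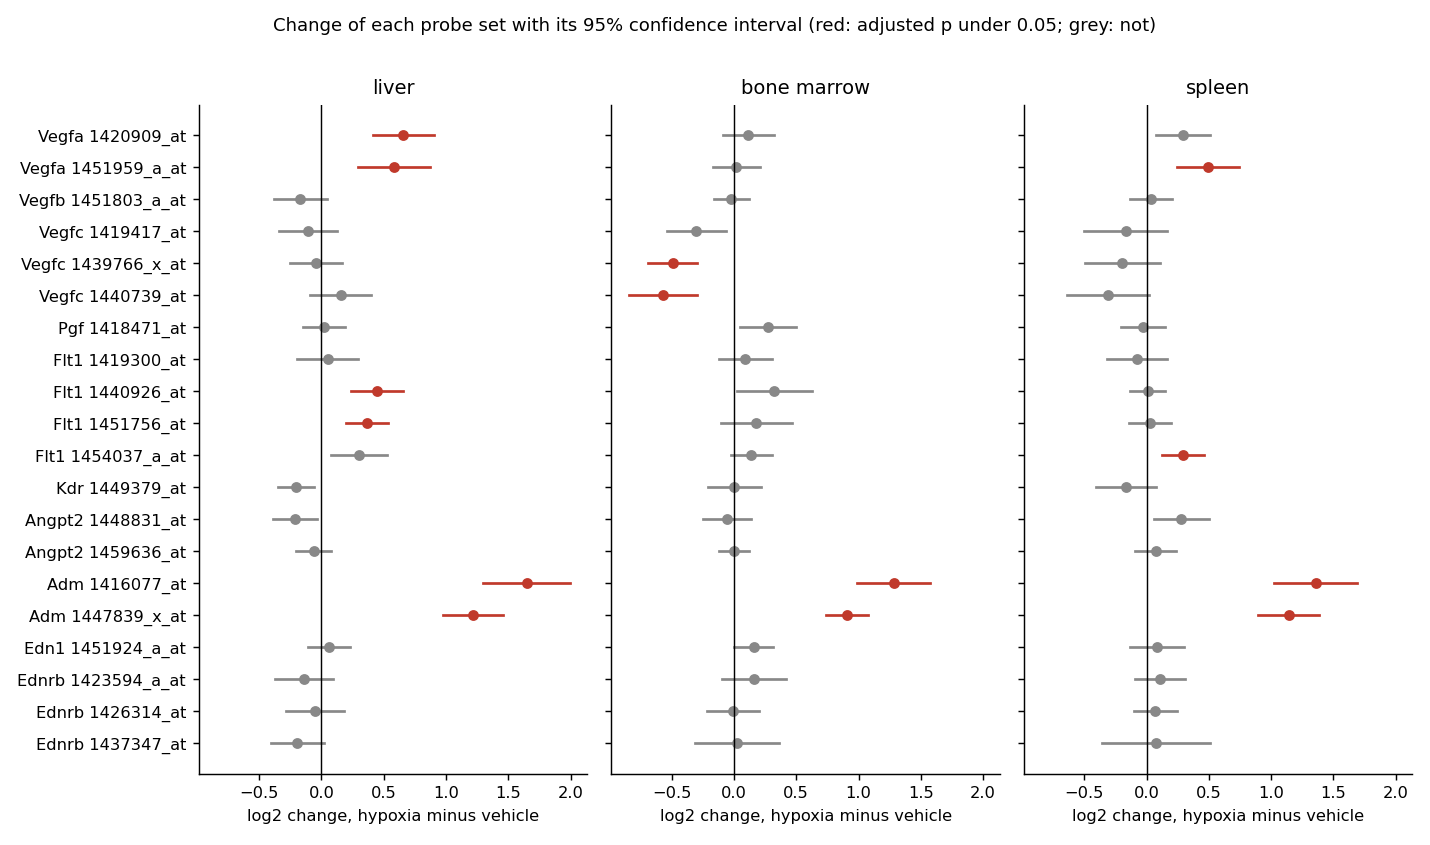
Change of each of the 20 probe sets in liver, bone marrow and spleen: log2 change, hypoxia minus vehicle (x axis), with its 95% confidence interval, red where adjusted p was under 0.05. Both Adm probe sets lie between 0.91 and 1.65 in the 3 tissues, both Vegfa probe sets are called in liver and 1 in spleen, and the lower calls are the Vegfc probe sets of bone marrow.

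Adm rose in every tissue and by more than any other member. On 1416077_at the livers had a lowest, median and highest value of 5.98, 6.59 and 7.01 under hypoxia, against 4.53, 4.85 and 5.66 with vehicle, a change of 1.65 ± 0.165 or 3.13-fold (adjusted p = 1.94e-06). All 8 hypoxia livers lay above all 8 vehicle livers, and the highest vehicle liver, replicate 1, stood well above its group. The probe set 1447839_x_at, whose suffix marks probes that may also match other transcripts, read 6.10, 6.47 and 6.96 in hypoxia livers and 4.96, 5.23 and 5.51 in vehicle livers, a change of 1.22 ± 0.115 (adjusted p = 8.45e-07), again without overlap. Groups that lay apart in the higher direction made up 3 of the 20 member probe sets in liver, the 2 of Adm and 1 of Flt1, against 0.799% of all probe sets, and 0 lay apart in the lower direction, against 1.09%.

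In bone marrow Adm 1416077_at read 6.51, 6.17, 6.32 and 5.97 in the 4 hypoxia samples, against 4.90, 4.85 and 5.14 in the 3 vehicle samples. The lowest hypoxia marrow exceeded the highest vehicle marrow by far, and the change was 1.28 ± 0.130, or 2.43-fold (adjusted p = 0.00271). For 1447839_x_at the hypoxia marrows read 6.78, 6.55, 6.77 and 6.60 and the vehicle marrows 5.80, 5.74 and 5.77, a change of 0.91 ± 0.073 (adjusted p = 0.000942). Vehicle marrows were almost level, and the groups did not touch. With so few samples, groups apart were common in bone marrow, at 6.48% of all probe sets in the higher and 7.32% in the lower direction, beside 3 and 2 of the 20 members.

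Spleen gave Adm 1416077_at values of 7.07, 7.98 and 8.29 (lowest, median and highest) under hypoxia, against 5.94, 6.63 and 6.93 with vehicle, a change of 1.36 ± 0.158 or 2.56-fold (adjusted p = 1.10e-05). The groups did not overlap, although hypoxia replicate 4 lay far below the other 7 hypoxia spleens on both Adm probe sets. Without that sample the change was 1.48 on 1416077_at, and it was 1.42 within replicates 5 to 8 and 1.29 within replicates 1 to 4, all called. For 1447839_x_at the hypoxia spleens had 7.53, 8.33 and 8.65 and the vehicle spleens 6.93, 7.17 and 7.23, a change of 1.14 ± 0.116 (adjusted p = 2.70e-06). These 2 probe sets were the members whose groups lay apart in spleen, where 1.28% of all probe sets lay apart in the higher and 2.63% in the lower direction. Adm was called on both probe sets in each tissue, and 0.366% of all probe sets, 165 in number, were called higher in all 3.

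No difference between tissues in the Adm change was called, although the intervals leave room for sizeable ones. On 1416077_at the change in liver exceeded that in spleen by 0.29 (95% interval -0.17 to 0.75, adjusted p = 0.545) and that in bone marrow by 0.37 (-0.23 to 0.96, adjusted p = 0.767). Spleen minus bone marrow was 0.08 (-0.52 to 0.67, adjusted p = 0.999, where 0.278% of all probe sets were called). The vehicle level of both probe sets was highest in spleen, at 6.57 ± 0.297 (SD, n = 8) for 1416077_at, against 4.90 ± 0.368 (SD, n = 8) in liver and 4.96 ± 0.155 (SD, n = 3) in bone marrow. Liver and bone marrow overlapped on that probe set, but on 1447839_x_at vehicle livers ran from 4.96 to 5.51 and vehicle marrows from 5.74 to 5.80. Array medians differ by tissue, which points to normalization tissue by tissue. Spleen stayed highest after quantile normalization over all 39 arrays, at 6.18 on 1416077_at, against 5.38 in liver and 4.63 in bone marrow. On 1447839_x_at that normalization put liver at 5.81, above bone marrow at 5.37, so the order of liver and bone marrow depended on the normalization.

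**Figure D2:**
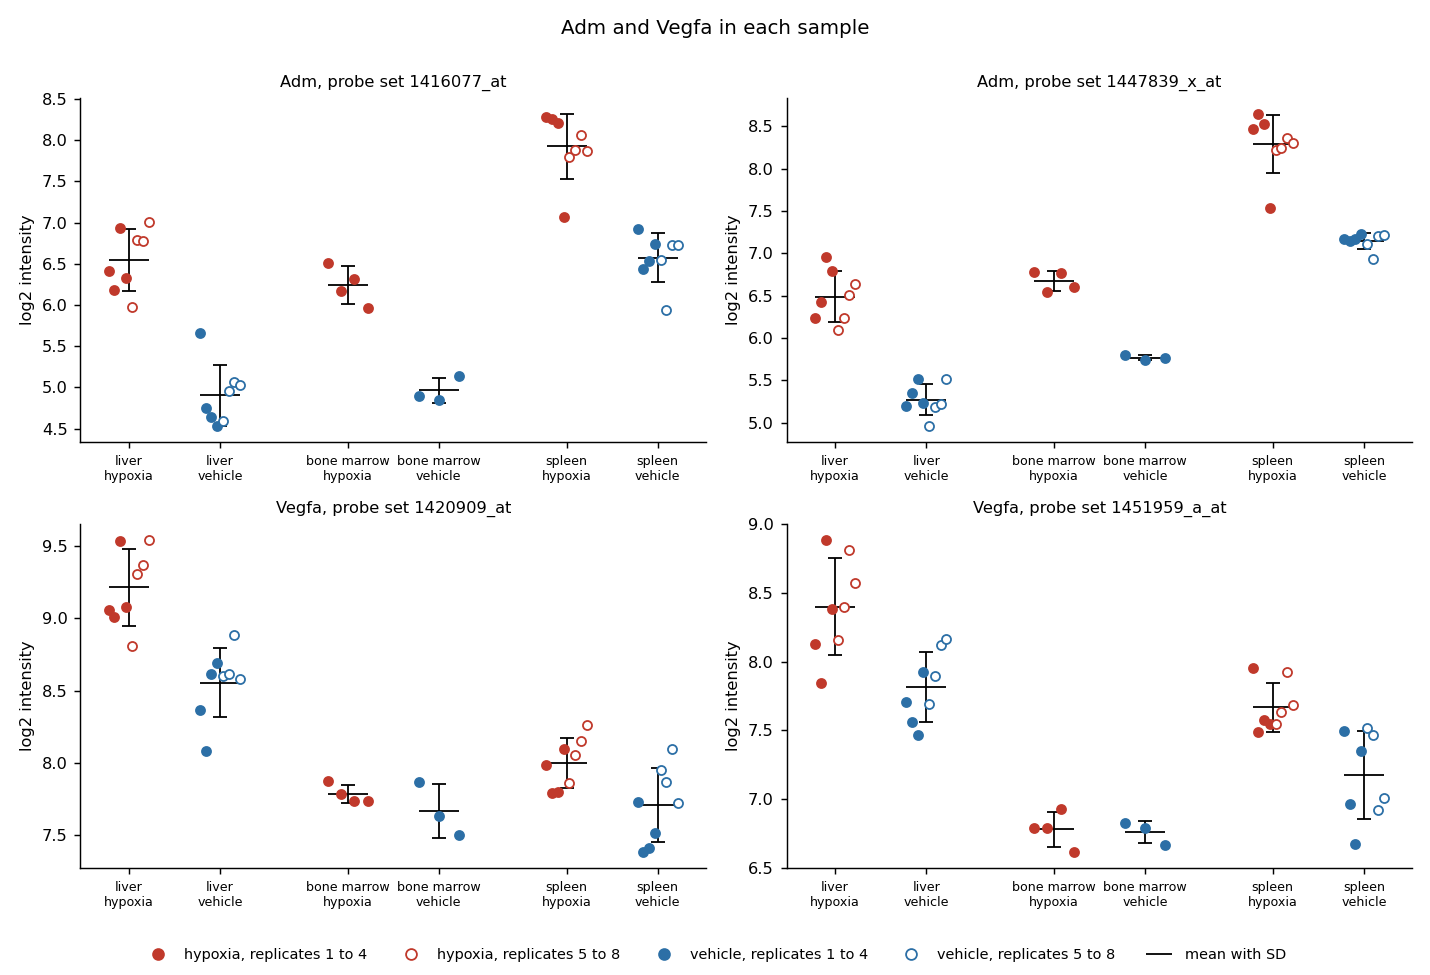
Log2 intensity of the Adm and Vegfa probe sets in each sample, by tissue, hypoxia left of vehicle; points are samples, filled for replicates 1 to 4 and open for 5 to 8, and bars are the mean with SD. Adm groups do not overlap in any tissue, while Vegfa separates most in liver and is not called in bone marrow, with a hypoxia mean of 7.78 and a vehicle mean of 7.67 on 1420909_at.

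Vegfa, the main angiogenic ligand, rose in liver on both probe sets. Hypoxia livers had 8.81, 9.19 and 9.54 on 1420909_at (lowest, median and highest) and vehicle livers 8.08, 8.61 and 8.88, a change of 0.66 ± 0.117 or 1.58-fold (adjusted p = 0.00108). Here 7 of 8 hypoxia livers lay above every vehicle liver, the exception being replicate 5. On 1451959_a_at, where hypoxia livers had 7.85, 8.39 and 8.89 and vehicle livers 7.46, 7.80 and 8.17, the change was 0.58 ± 0.139 (adjusted p = 0.0126), with 5 of 8 hypoxia livers above all vehicle livers. Within replicates 1 to 4 alone the change on this probe set was 0.65 and its call was lost (adjusted p = 0.108, where 3.8% of all probe sets were called), while 1420909_at was called in every alternative run.

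In spleen the 2 Vegfa probe sets differed in their calls. The hypoxia spleens read 7.48, 7.60 and 7.96 on 1451959_a_at and the vehicle spleens 6.68, 7.18 and 7.52, a change of 0.49 ± 0.120 (adjusted p = 0.00809), and 7 of 8 hypoxia spleens exceeded all vehicle spleens. For 1420909_at hypoxia spleens had 7.79, 8.02 and 8.26 and vehicle spleens 7.38, 7.73 and 8.10, a change of 0.29 ± 0.103 that missed the threshold (adjusted p = 0.0704), with broad overlap. It passed with the replicate number as a block (adjusted p = 0.0375), with replicates 1 to 4 against 5 to 8 as a term (0.0191) and without vehicle replicate 7 (0.0245), and within replicates 1 to 4 the change on 1451959_a_at was 0.52 and its call was lost (adjusted p = 0.168).

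No change of Vegfa was detected in bone marrow. On 1420909_at the hypoxia marrows read 7.87, 7.78, 7.74 and 7.74 and the vehicle marrows 7.87, 7.63 and 7.51, a change of 0.12 with a 95% interval of -0.09 to 0.32 (adjusted p = 0.578). On 1451959_a_at they read 6.79, 6.79, 6.92 and 6.61 under hypoxia and 6.82, 6.79 and 6.67 with vehicle, a change of 0.02 with an interval of -0.17 to 0.21 (adjusted p = 0.939). The groups overlapped on both probe sets. On 1451959_a_at both groups had exactly the same median, 6.79049. Equal values between marrow arrays, described below, limit what these 2 results can show. The liver change exceeded the bone marrow change by 0.54 on 1420909_at (95% interval 0.14 to 0.94) and 0.56 on 1451959_a_at (0.09 to 1.03), but neither difference passed (adjusted p = 0.192 and 0.297, where 1.86% of all probe sets were called). With arrays weighted by tissue the first did (adjusted p = 0.0420). Liver minus spleen was 0.37 on 1420909_at (0.06 to 0.68, adjusted p = 0.147) and 0.09 on 1451959_a_at (-0.28 to 0.45, adjusted p = 0.857). The vehicle level of Vegfa was highest in liver on both probe sets, at 8.55 ± 0.238 on 1420909_at (SD, n = 8), against 7.71 ± 0.258 (SD, n = 8) in spleen and 7.67 ± 0.186 (SD, n = 3) in bone marrow, and spleen and bone marrow did not differ beyond their spread. That order also held after quantile normalization over all arrays.

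The other ligands of the family did not follow Vegfa. Vegfb, a ligand of Flt1, changed by -0.17 in livers, by -0.02 in marrows and by 0.04 in spleens, with group means between 7.38 and 7.84, and none of these passed (adjusted p from 0.409). Pgf, the placental growth factor that also binds Flt1, changed by 0.02 in liver and -0.03 in spleen. In bone marrow Pgf read 7.12, 6.87, 7.21 and 6.93 under hypoxia and 6.68, 6.90 and 6.71 with vehicle, a change of 0.27 ± 0.098 that did not pass (adjusted p = 0.205), and vehicle replicate 2 lay above the lowest hypoxia marrow.

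Vegfc, the ligand that directs lymphatic vessel growth, was the member with lower calls, and these were in bone marrow. On 1439766_x_at the 4 hypoxia marrows read 6.59, 6.38, 6.37 and 6.24, against 6.84, 6.96 and 6.87 in the 3 vehicle marrows, a change of -0.49 ± 0.086 (adjusted p = 0.0223). On 1440739_at they read 5.92, 5.63, 5.95 and 5.57, against 6.15, 6.46 and 6.40, a change of -0.57 ± 0.119 (adjusted p = 0.0409). Every hypoxia marrow lay below every vehicle marrow on these 2 probe sets. The third, 1419417_at, read 6.38, 6.18, 6.40 and 6.11 under hypoxia and 6.69, 6.65 and 6.38 with vehicle, a change of -0.30 ± 0.103 that did not pass (adjusted p = 0.178).

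The Vegfc calls were close to the threshold and depended on the fit. With the replicate block the adjusted p was 0.0606 on 1439766_x_at and 0.0964 on 1440739_at, and in a fit of all 39 samples it was 0.245 and 0.237. Leaving out 1 marrow sample at a time kept the direction throughout, with changes between -0.56 and -0.44 on 1439766_x_at and between -0.67 and -0.51 on 1440739_at, while the calls held in 2 and 1 of the 7 cases. In liver the 3 Vegfc probe sets changed by -0.11, -0.04 and 0.15, none called.

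**Figure D3:**
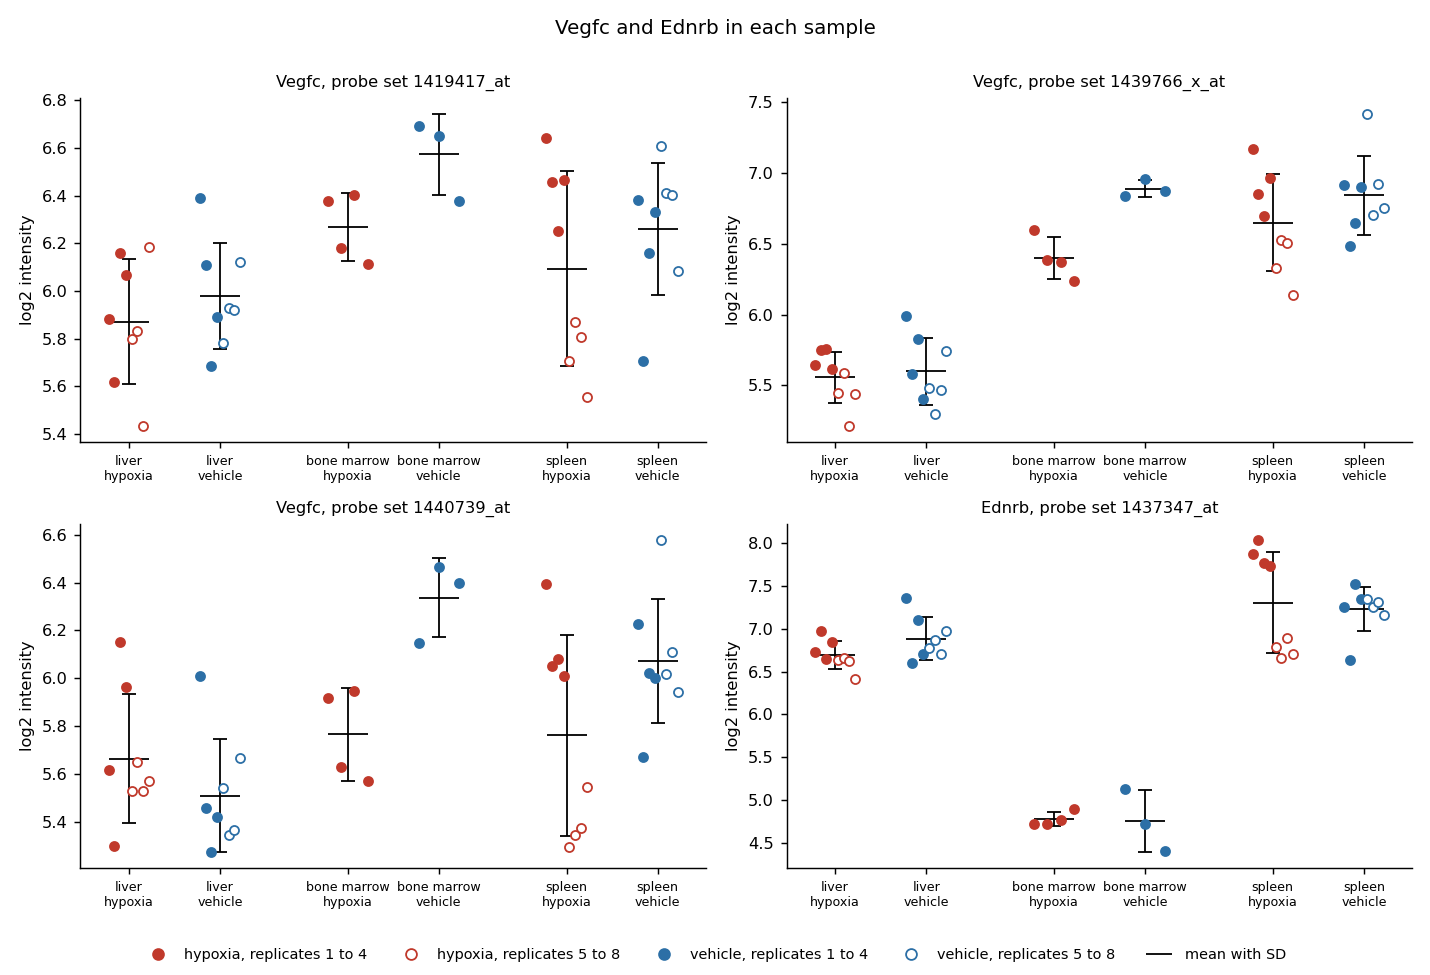
Log2 intensity of the 3 Vegfc probe sets and of Ednrb 1437347_at in each sample, hypoxia left of vehicle; points are samples, filled for replicates 1 to 4 and open for 5 to 8, and bars are the mean with SD. In bone marrow the Vegfc values of hypoxia samples lie low, and in spleen the open and filled hypoxia points form separate clusters, at means of 6.76 and 7.85 for Ednrb.

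In spleen the Vegfc values under hypoxia fell into 2 bands that follow the replicate numbers. Hypoxia replicates 5 to 8 averaged 5.73 on 1419417_at and their vehicle counterparts 6.38, a change of -0.64 ± 0.115 within these arrays (adjusted p = 0.00392), and the other 2 probe sets changed by -0.57 and -0.77 there. Hypoxia replicates 1 to 4 averaged 6.45 and vehicle replicates 1 to 4 averaged 6.14, a change of 0.31 ± 0.153 (adjusted p = 0.349). The labels name no batch. Over all 8 against 8 spleens the changes were -0.17, -0.19 and -0.31, none called, and the difference of changes between the replicate sets, -0.95 on 1419417_at, -0.76 on 1439766_x_at and -0.93 on 1440739_at, did not pass (adjusted p from 0.103, where 0.00444% of all probe sets were called).

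Flt1, the receptor that binds Vegfa tightly and is also made as a soluble decoy, was read by 4 probe sets that did not give the same answer. In liver 1440926_at had 5.53, 5.82 and 6.30 under hypoxia (lowest, median and highest) and 5.22, 5.43 and 5.52 with vehicle, a change of 0.45 ± 0.0999 or 1.36-fold (adjusted p = 0.00759). All 8 hypoxia livers lay above all vehicle livers. On 1451756_at the hypoxia livers had 6.19, 6.43 and 6.54 and the vehicle livers 5.70, 6.08 and 6.22, a change of 0.37 ± 0.080 (adjusted p = 0.00643), with 7 of 8 hypoxia livers above every vehicle liver. Within replicates 1 to 4 alone, with 4 against 4 arrays, the changes were 0.37 and 0.34 and the calls were lost (adjusted p = 0.136 and 0.146).

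The remaining Flt1 probe sets were not called in liver. On 1454037_a_at the hypoxia livers had 4.33, 4.50 and 4.65 and the vehicle livers 3.77, 4.22 and 4.62, a change of 0.30 ± 0.107 (adjusted p = 0.104), where vehicle replicates 1 to 4 made up the low end. This probe set was nearly dim in liver, at percentile 32.1, and its vehicle mean of 4.19 was under the 30th percentile of 4.24. Liver arrays had their own 30th percentile at 4.16 to 4.23 in replicates 1 to 4 and 4.28 to 4.31 in 5 to 8. The change passed with the replicate block (adjusted p = 0.0489), which takes liver samples as paired by number, and in 5 of 10 alternatives apart from leaving out samples. Within replicates 1 to 4 the change was 0.51 ± 0.098 (adjusted p = 0.0167) and within 5 to 8 it was 0.10 ± 0.092 (adjusted p = 0.607), and the difference between the sets did not pass (adjusted p = 0.461). Without vehicle replicate 6 the change over all livers was 0.36 (adjusted p = 0.0343). On 1419300_at the livers gave 5.69, 6.01 and 6.43 under hypoxia and 5.68, 5.95 and 6.35 with vehicle, a change of 0.05 (95% interval -0.19 to 0.30).

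In spleen 1 of the 4 probe sets was called, 1454037_a_at. The hypoxia spleens read 5.30, 5.55 and 6.03 and the vehicle spleens 5.18, 5.28 and 5.36, a change of 0.29 ± 0.080 (adjusted p = 0.0174), and 7 of 8 hypoxia spleens exceeded every vehicle spleen. With 4 against 4 arrays this call was lost, in replicates 5 to 8 (0.26, adjusted p = 0.0614) and in 1 to 4 (0.32, adjusted p = 0.234). The 2 probe sets called in liver changed by 0.01 and 0.03 in spleen. For 1440926_at that difference between the tissues was itself called, at 0.44 ± 0.125 for liver minus spleen (95% interval 0.19 to 0.69, adjusted p = 0.0218), as it was for 7.71% of all probe sets. It was 0.34 ± 0.116 for 1451756_at (adjusted p = 0.0649), and for 1454037_a_at, whose changes in liver and spleen were close, it was 0.01 (95% interval -0.25 to 0.27, adjusted p = 0.980). In bone marrow the 4 probe sets changed by 0.09 to 0.32, none called, and 1440926_at read 6.00, 6.30, 6.11 and 6.55 under hypoxia and 5.85, 6.08 and 5.81 with vehicle (adjusted p = 0.259).

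Kdr, the main signalling receptor for Vegfa, was not called in any tissue. Hypoxia livers had 8.10, 8.28 and 8.42 and vehicle livers 8.23, 8.53 and 8.62, a change of -0.21 ± 0.069 (adjusted p = 0.0795). The change passed with replicates 1 to 4 against 5 to 8 as a term (adjusted p = 0.0474) and without vehicle replicate 4 (0.0338), and 3 hypoxia livers lay below every vehicle liver. Bone marrow values were level, with a change of 0.00 (95% interval -0.21 to 0.22). In spleen Kdr changed by -0.41 ± 0.076 within replicates 5 to 8 (adjusted p = 0.00471) and by 0.08 ± 0.148 within 1 to 4, and the difference of -0.50 did not pass (adjusted p = 0.317). Over all spleens it changed by -0.16.

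**Figure D4:**
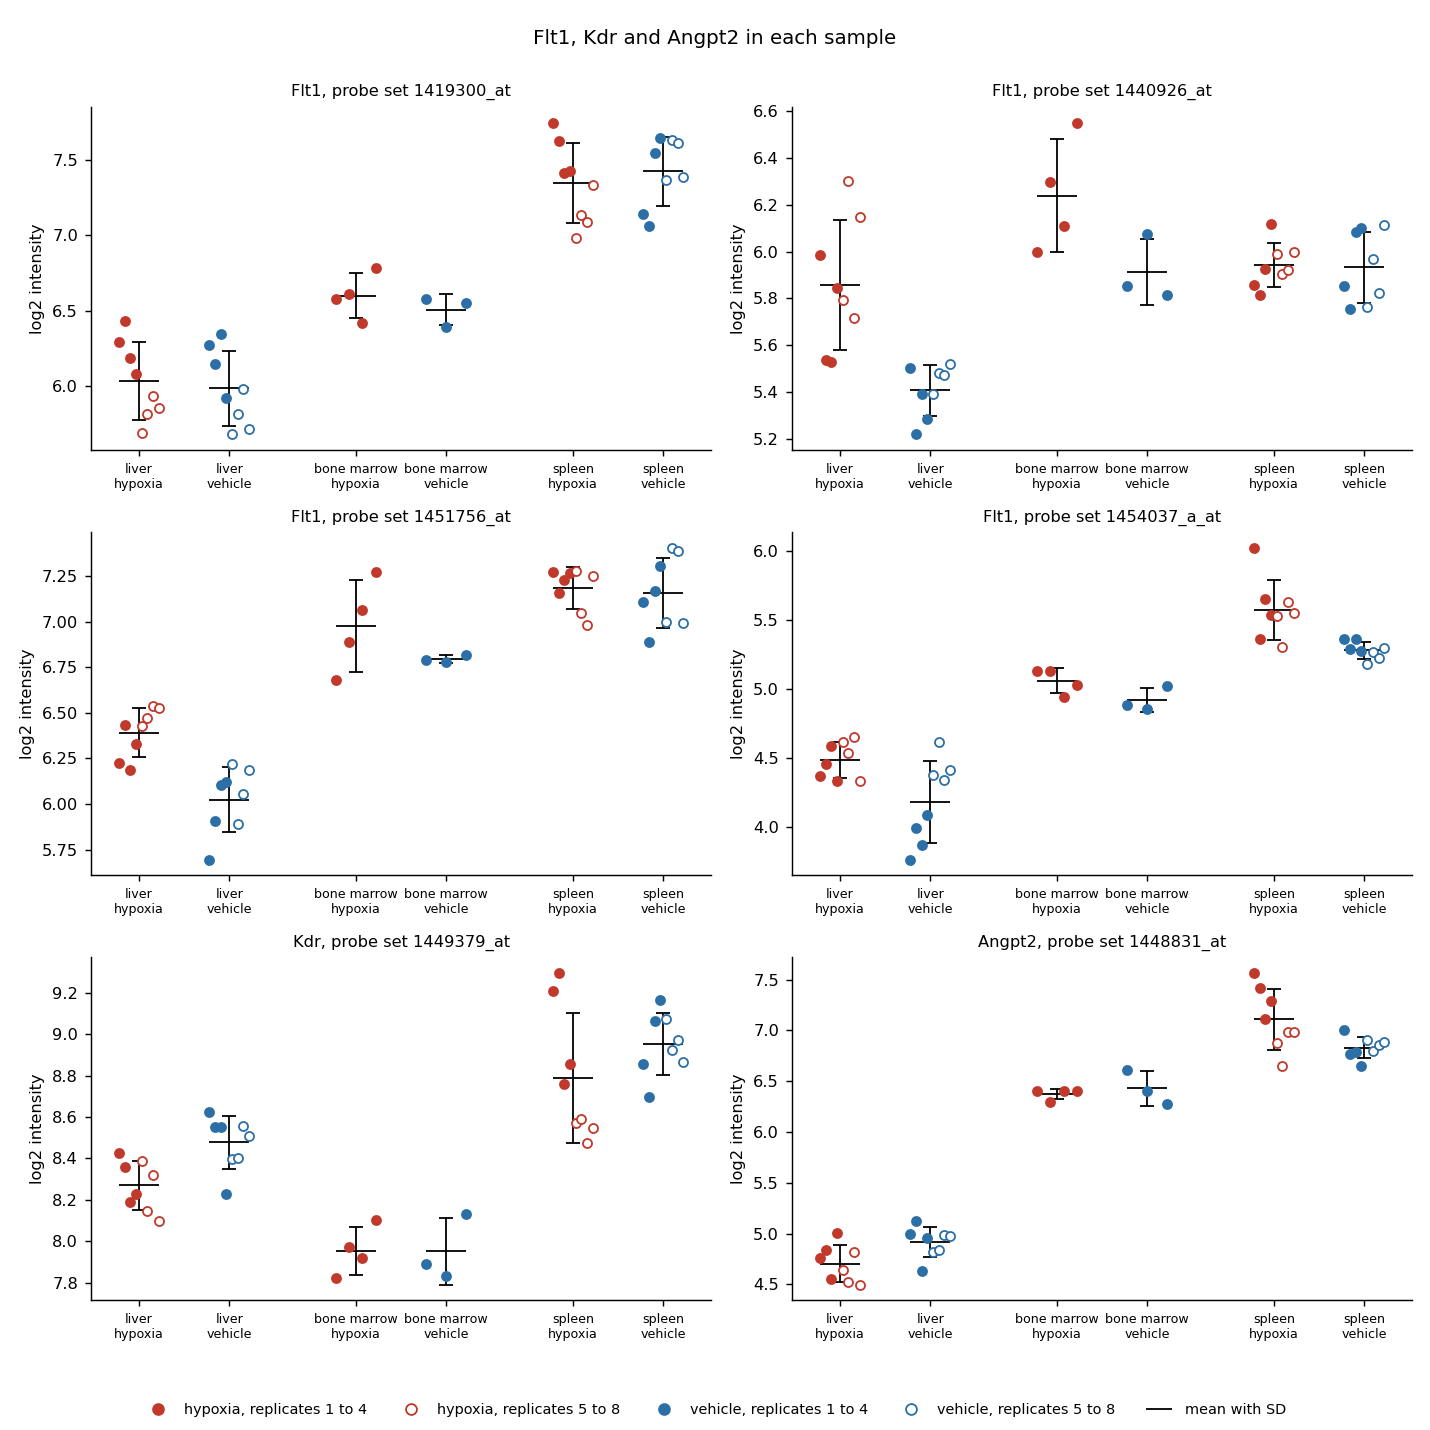
Log2 intensity of the 4 Flt1 probe sets, Kdr and Angpt2 1448831_at in each sample, hypoxia left of vehicle; points are samples, filled for replicates 1 to 4 and open for 5 to 8, and bars are the mean with SD. Flt1 1440926_at separates in liver only, and Angpt2 has hypoxia means of 4.70 in liver and 7.11 in spleen, on opposite sides of the vehicle means of 4.92 and 6.83.

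Angpt2, which loosens vessels by opposing Angpt1 at the receptor Tek, was not called in any single tissue. Its change in liver differed from its change in spleen on the brighter of its probe sets. On 1448831_at the hypoxia livers had 4.50, 4.70 and 5.01 and the vehicle livers 4.63, 4.97 and 5.12, a change of -0.21 ± 0.084 (adjusted p = 0.155). The spleens had 6.65, 7.05 and 7.57 under hypoxia and 6.65, 6.83 and 7.01 with vehicle, a change of 0.28 ± 0.106 (adjusted p = 0.0915). Groups overlapped in both tissues. Liver minus spleen was -0.49 ± 0.131 (95% interval -0.76 to -0.23, adjusted p = 0.0133), where 7.71% of all probe sets were called. It stayed called in all 36 alternatives, between -0.56 and -0.43 when samples were left out in turn. Of these alternatives 32 left out a single sample, and none was run within a replicate set. The spleen change was 0.54 within replicates 1 to 4 (adjusted p = 0.0349) and 0.01 within 5 to 8, and this difference between sets did not pass (adjusted p = 0.186).

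In bone marrow Angpt2 1448831_at read 6.40, 6.30, 6.40 and 6.40 under hypoxia and 6.61, 6.40 and 6.28 with vehicle, a change of -0.05 (95% interval -0.25 to 0.14). Equal values such as these occurred among the arrays of a group for 26.8% of all probe sets in hypoxia marrow and 14.6% in vehicle marrow, against 0.970% to 1.33% in liver and spleen groups, so the spread in bone marrow can be understated. The other Angpt2 probe set, 1459636_at, was below the 30th percentile of intensity in every tissue and changed by -0.06, -0.00 and 0.07. Its liver minus spleen difference, -0.14, was not called (adjusted p = 0.461).

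The endothelin pair was close to level. Edn1 in bone marrow read 6.01, 6.04, 6.01 and 5.96 under hypoxia and 5.71, 5.95 and 5.89 with vehicle, so the groups just lay apart, but the change of 0.16 ± 0.069 did not pass (adjusted p = 0.299). It was 0.06 in liver and 0.09 in spleen, where hypoxia replicate 2, at 6.93, was far above the other hypoxia spleens. The 3 Ednrb probe sets changed by -0.19 to -0.05 in livers, by -0.01 to 0.16 in marrows and by 0.07 to 0.11 in spleens, with 0 of these 9 changes called and 0 at an unadjusted p under 0.05. In bone marrow 1426314_at and 1437347_at of Ednrb were dim, with means below the 30th percentile of that tissue.

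Ednrb 1437347_at showed the widest gap between the spleen replicate sets. Hypoxia replicates 5 to 8 read 6.79, 6.65, 6.89 and 6.71 and vehicle replicates 5 to 8 read 7.35, 7.25, 7.31 and 7.16, a change of -0.51 ± 0.082 (adjusted p = 0.00229). Hypoxia replicates 1 to 4 read 7.87, 8.04, 7.76 and 7.73 and vehicle replicates 1 to 4 read 7.25, 6.63, 7.52 and 7.35, a change of 0.66 ± 0.176 (adjusted p = 0.0730). The sets were on opposite sides of their vehicle samples, and the difference of changes, -1.17 ± 0.199, did not pass after adjustment (adjusted p = 0.0884).

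Within replicates 5 to 8 of spleen 3 member probe sets were called higher and 6 lower, where 6.93% and 9.45% of all probe sets were called, and the 6 were the 3 of Vegfc, Flt1 1419300_at, Kdr and Ednrb 1437347_at. Within replicates 1 to 4 3 were called, the 2 of Adm and Angpt2 1448831_at, all higher, where 1.93% of all probe sets were called higher and 2.16% lower. The endothelial marker list moved in the same sense as these sets: its 30 probe sets had a median change of -0.09 in replicates 5 to 8, with 1 called higher and 7 lower, and of 0.37 in 1 to 4, with 8 higher and 0 lower. Markers of stellate and mural cells had a median of -0.21 in replicates 5 to 8, with 10 of 30 lower, and 0.02 in 1 to 4, and erythroid markers had 1.43 and -0.05. Their part in the Vegfc, Kdr and Ednrb values was not tested, and in whole tissue fewer cells of a type and less RNA per cell cannot be told apart.

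Over all spleens the endothelial markers had a median change of 0.12 over 20 genes, of which Tie1, Tek, Ptprb, Cdh5 and Gpr182 also stand in the pathway lists, with 6 of 30 probe sets higher (Egfl7, Eng and Ptprb) and 3 lower (Sox17 and Sox18), and their summed intensity ran from 8084 to 12754 under hypoxia and from 7932 to 10470 with vehicle. In liver 0 were higher and 2 lower of 30, Tie1 and Sox18, with sums of 3147 to 3496 under hypoxia and 2943 to 4263 with vehicle. In bone marrow 1 was lower, Sox18 again, with sums of 5758 to 7091 and 6011 to 6893 in hypoxia and vehicle samples. Neutrophil markers rose with Adm and Vegfa in spleen, on 3 of 11 probe sets with a median change of 1.01 and sums of 7452 to 70800 under hypoxia and 9814 to 30436 with vehicle, and on 2 of 11 in liver (S100a8 and S100a9). In bone marrow, where Adm rose too, 0 of 11 were called, with 1 at an unadjusted p under 0.05, and their median was -0.03. Hepatocyte markers had 0 of 18 probe sets called in liver (1 at an unadjusted p under 0.05). The tissues carried their markers: hepatocyte sums ran from 163411 to 176215 in livers, and at most 502 in bone marrow and 492 in spleen, and B cell sums from 6823 to 22222 in hypoxia spleens and from 16025 to 26253 in vehicle spleens. In spleen the B cell markers had 2 of 8 probe sets called lower (Cd79b and Pax5), with a median change of -0.42, and the T cell markers 2 of 10, both of Cd8a, with a median of -0.31. Of all probe sets 3.06% were called higher and 4.03% lower in liver, 1.64% and 1.71% in bone marrow, and 5.89% and 8.8% in spleen. In liver the macrophage markers had 9 of 17 called higher in replicates 5 to 8, with a median of 0.49, and 0 in 1 to 4, with a median of -0.16, beside Adm and Vegfa 1420909_at called higher in both sets. In either direction 3148 of all 45037 probe sets were called in liver replicates 5 to 8 and 3.8% in 1 to 4. The part of the cell type markers in the members' values was not tested. No marker is listed at 0, since the deposited intensities are all above 0.

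Genes around the members were read from lists of the same pathways. Their counts stand beside the shares of all probe sets called higher and lower. These were 3.06% and 4.03% in liver, 1.64% and 1.71% in bone marrow, and 5.89% and 8.8% in spleen. Among 53 probe sets of other VEGF pathway genes, 6 were called higher and 1 lower in liver, 1 higher and 0 lower in bone marrow, and 5 higher and 4 lower in spleen, with medians of -0.02, 0.08 and 0.07. In liver the higher genes were Timp3 (0.46 ± 0.075 on 1449334_at, adjusted p = 0.000534), whose protein blocks Vegfa binding to Kdr, Rcan1 (1.13 ± 0.20 on 1416600_a_at, adjusted p = 0.00105), a calcineurin inhibitor induced by Vegfa signalling, and Nos3 (0.27 ± 0.079), endothelial nitric oxide synthase. The co-receptor Nrp1 was called lower on 1 of its 4 probe sets, 1457198_at, in liver (-1.03 ± 0.258, adjusted p = 0.0171) and in spleen (-0.69 ± 0.084, adjusted p = 1.74e-05).

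In bone marrow Nrp2, the co-receptor used by Vegfc, was higher on 1435349_at (0.52 ± 0.073, adjusted p = 0.00996). Nrp2 was called lower in spleen on 2 of its 4 probe sets, neither of them that one: 1447343_at (-0.28 ± 0.065, adjusted p = 0.00584) and 1426528_at (-0.30 ± 0.086, adjusted p = 0.0240), and the difference between these tissues was not tested. Sema3f, a ligand of Nrp2, was higher in spleen (0.53 ± 0.115 on 1425840_a_at), as was Notch4 on 1 of 3 probe sets (0.47 ± 0.112 on 1436901_at), a Notch receptor of endothelium.

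Of 13 probe sets for other genes of the angiopoietin and Tie axis, 4 were higher and 1 lower in liver and 0 were called in bone marrow or spleen, where 2 and 1 had an unadjusted p under 0.05. Foxo1, the transcription factor that induces Angpt2 in endothelium, rose in liver on 3 probe sets (0.89 ± 0.107 on 1416981_at, adjusted p = 1.90e-05), and so did the flow-responsive Klf2 (0.99 ± 0.157, adjusted p = 0.000380). Tie1, an endothelial co-receptor of the pathway, fell by 0.42 (adjusted p = 0.0263). Angpt2 itself was not called there.

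Other genes of the adrenomedullin axis had few calls. Among 17 probe sets 0 were called in liver (1 at an unadjusted p under 0.05), 1 higher and 1 lower in bone marrow, and 1 higher and 0 lower in spleen. Calcrl, the receptor for adrenomedullin, was called lower in bone marrow on 1 of its 3 probe sets (-0.46 ± 0.060 on 1425814_a_at, adjusted p = 0.00729), with -0.42 and 0.08 on the others. Ackr3, a scavenger receptor that takes up adrenomedullin, was higher in bone marrow (0.59 ± 0.082, adjusted p = 0.00963) and in spleen (0.56 ± 0.142, adjusted p = 0.0100). Of the 13 probe sets of the endothelin axis 1 was called, Phex in bone marrow (0.59 ± 0.104, adjusted p = 0.0220), on 1 of 2 probe sets, a bone gene related to the endothelin-converting enzymes, against 0 in liver and spleen, where 1 and 0 had an unadjusted p under 0.05.

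**Figure D5:**
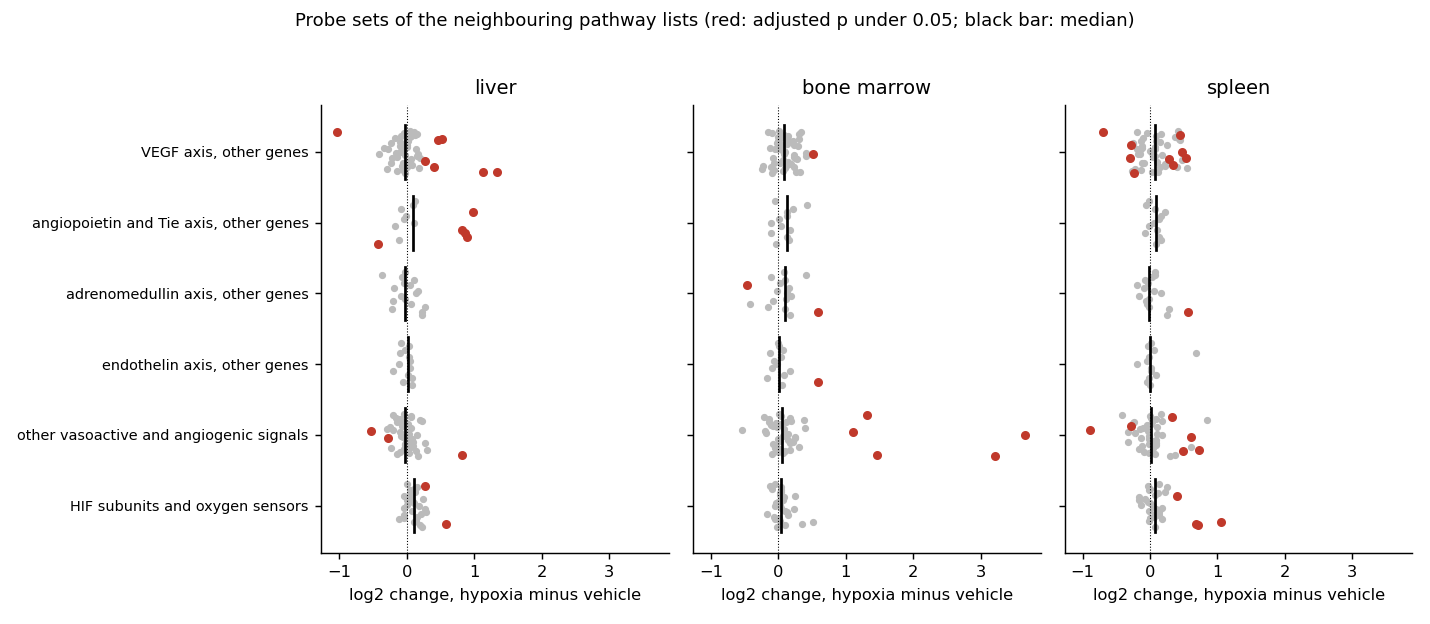
Log2 change, hypoxia minus vehicle (x axis), of each probe set in the 6 lists of neighbouring pathway genes, by tissue; red points have adjusted p under 0.05 and the black bar is the list median. List medians lie between -0.02 and 0.12, and the points farthest right are the Ccn1 probe sets of bone marrow, up to 3.66.

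Other vasoactive and angiogenic signals, 44 probe sets, had 1 higher and 2 lower in liver, 5 higher and 0 lower in bone marrow, and 4 higher and 2 lower in spleen. In either direction 6.82% were called in liver and 13.6% in spleen, near the shares of all probe sets there, and 11.4% in bone marrow, above them. The bone marrow calls were 4 probe sets of Ccn1, the highest at 3.66 ± 0.199 on 1438133_a_at (adjusted p = 0.000228), and Ccn2 (1.46 ± 0.266, adjusted p = 0.0258), both secreted matrix proteins that act on vessels. Ccn2 was also higher in liver (0.82 ± 0.128, adjusted p = 0.000308), where Hgf was called lower on 1 of 3 probe sets (-0.53 ± 0.118 on 1442884_at, with 0.02 and -0.10 on the others) and the natriuretic peptide receptor Npr3 also on 1 of 3 (-0.29 ± 0.080 on 1435184_at, with -0.30 and 0.02 on the others). In spleen Hbegf (0.50 ± 0.0999 on 1418349_at) and the angiotensin receptor Agtr1a (0.61 ± 0.176 on its only probe set) were higher and Tgfb1 (-0.89 ± 0.104 on 1445360_at) and Pdgfa (-0.28 ± 0.088 on 1449187_at) lower. Each but Agtr1a was called on 1 of 2 probe sets.

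The HIF subunits and oxygen sensors, 30 probe sets, had 2 called in liver, 0 in bone marrow (2 at an unadjusted p under 0.05) and 4 in spleen, all higher, with medians of 0.10, 0.03 and 0.07. Egln3, the prolyl hydroxylase that is itself a HIF target, was called higher in liver on 1 of its 2 probe sets (0.58 ± 0.149 on 1418648_at, adjusted p = 0.0215). It also rose in spleen (0.68 ± 0.131 on the same probe set, adjusted p = 0.00131). In bone marrow, where Adm was called and Vegfa was not, Egln3 changed by 0.34 ± 0.096 and did not pass (adjusted p = 0.109). Egln2 (0.71 ± 0.077, adjusted p = 4.95e-06) and Hif3a (0.40 ± 0.092 on 1446708_at, 1 of 6 probe sets) were higher in spleen and Hif1an (0.27 ± 0.079 on 1452845_at, 1 of 3), which hydroxylates the HIF activation domain, in liver.

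The genes whose values ran most like those of Vegfa 1420909_at over the 39 samples, after each tissue's mean was subtracted, were Hilpda (Pearson r = 0.824), Tiparp (0.809), P4ha1 (0.789), Shb (0.786) and Bhlhe40 (0.784), among 16332 genes each read by its brightest probe set. For Adm 1447839_x_at they were Dusp1 (0.932), Ankrd37 (0.925), Rhob (0.924), H3f3b (0.902) and Fos (0.894). The 2 sets of 5 share no gene. The points share arrays, tissues and the hypoxia contrast itself, and the values are descriptions. Within groups, with that contrast removed, Adm and Vegfa were only weakly related, at r = 0.346 over 16 livers, 0.258 over 7 marrows and -0.284 over 16 spleens.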

How the data were processed

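RNA of 39 samples was hybridised to 1-colour Affymetrix Mouse430_2 arrays. RMA and limma are named in the submitters' processing notes, with no version. The authors deposited 1 linear intensity per probe set and sample. Liver arrays had log2 medians of 5.21 to 5.34, marrow arrays of 6.22 to 6.29 and spleen arrays of 6.16 to 6.20, which shows that tissues were not brought to 1 scale, so tests were run within tissues.

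Intensities were log2 transformed with no further normalization, and 64 control probe sets were left out, leaving 45037. Each tissue was fitted with limma 3.58.1 (R 4.3.3; lmFit, eBayes), hypoxia minus vehicle, with Benjamini-Hochberg adjustment over all probe sets. Differences between tissues came from 1 fit of all 39 samples. The scripts were tested on simulated data. The number of arrays limits the precision, and scan dates were not used here.

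All 10 genes with every probe set are described, with up to 4 called genes per pathway list and tissue, those of smallest p, and the 5 genes most alike to Vegfa and Adm. The members and lists were chosen with earlier results of these data known. Of all probe sets 34958 carry 1 symbol, 932 several and 9211 none. Symbols come from the platform annotation.

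Same-numbered liver samples deviated together, with correlations of 0.141 to 0.432 over 8 pairs, each above the 0.1 set for pairing. Those of bone marrow (0.005 to 0.157) and spleen (-0.380 to 0.371) did not all reach it. The main fits were unpaired in every tissue, liver included, whatever this check gave. Same-numbered livers also share a replicate set, 1 to 4 or 5 to 8, so this check cannot tell pairing from a difference between the sets. Alternatives were the replicate block, other normalizations, filters, fits and replicate sets, and leaving out each sample. The comparison of changes between replicate sets and the quantile normalization over all arrays were added after the data were seen.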

Additional observations from a re-analysis of the deposited data

Results flagged for a closer look

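Of 100 groups of 4 to 8 samples examined for a lone extreme value, 10 held one, and chance gives about 1 in 20. Adm in spleen hypoxia replicate 4 was low on both probe sets, at 7.07 on 1416077_at and 7.53 on 1447839_x_at, and Angpt2 1459636_at was high in the same sample, at 4.89. Edn1 was high in spleen hypoxia replicate 2, at 6.93. Among spleen vehicle samples, replicate 2 was high for Pgf, at 6.56, and for Angpt2 1459636_at, at 4.64, and low for Ednrb 1437347_at, at 6.63. Spleen vehicle replicate 5 was high for Vegfc 1439766_x_at, at 7.42, and replicate 6 low for Adm 1447839_x_at, at 6.93. In bone marrow, hypoxia replicate 2 was apart for Angpt2 1448831_at, at 6.30, because the other 3 samples hold 1 identical value of 6.40.

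The change differed between liver and spleen by 0.44 for Flt1 1440926_at and by -0.49 for Angpt2 1448831_at, both past the threshold in the test of the difference itself. These were 2 of the 20 member probe sets, and 7.71% of all probe sets passed the same test.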

How the results depend on the processing

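The 6 called probe sets of liver became 3 with 1 probe set per gene and 6 to 7 when samples were left out in turn. The 4 of bone marrow became 2 with 1 probe set per gene, 2 in the fit of all 39 samples and 2 to 3 when samples were left out, and Adm stayed called on each of its probe sets tested. The 4 of spleen became 1 with 1 probe set per gene, 9 in replicates 5 to 8 alone and 4 to 5 when samples were left out. The 2 differences between liver and spleen, where 7.71% of all probe sets were called, ran from 2 to 3 when samples were left out. The 0 between liver and bone marrow became 2 with array weights by tissue. They stayed at 0 when samples were left out, as did those between spleen and bone marrow.

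Under the replicate block liver had 7 called member probe sets, bone marrow 2 and spleen 5, and 2, 0 and 0 differences for liver minus spleen, liver minus bone marrow and spleen minus bone marrow. In liver, where same numbers passed the pairing check, the block added Flt1 1454037_a_at and changed no other call. Samples correlated best with their own number in 3 of 8 liver, 2 of 3 bone marrow and 1 of 8 spleen pairs.

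Signs turned in spleen. In replicates 1 to 4 alone Vegfc changed by 0.31, 0.19 and 0.15, Flt1 1419300_at by 0.20 and Kdr by 0.085, and in replicates 5 to 8 alone Ednrb 1437347_at changed by -0.51. Leaving out samples put that probe set between -0.028 and 0.17, at -0.0083 without vehicle replicate 2, -0.0041 without hypoxia replicate 1 and -0.028 without hypoxia replicate 2. The cause was not tested.

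Over all probe sets the calls numbered 3196 in liver, against 4963 with the block, 5380 with the replicate sets as a term, 4755 in the fit of 39 samples, 1710 in replicates 1 to 4 and 1413 with 1 probe set per gene. In bone marrow they numbered 1508, against 764 in the fit of 39 samples, 979 with 1 probe set per gene and 483 without vehicle replicate 2. In spleen they numbered 6615, against 1843 in replicates 1 to 4 and 2469 with 1 probe set per gene. For liver minus bone marrow the differences numbered 836, against 2140 with array weights, and for spleen minus bone marrow 125, against 732. The 7 marrow arrays limit the differences between tissues: for Vegfa 1420909_at the standard error was 0.197 for liver minus bone marrow and 0.153 for liver minus spleen.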
